A study of Mus musculus with 2 samples.

Results

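Transcripts of the insulin-like growth factor (IGF) system were measured for 10 genes in samples labelled as mouse fibroblasts. The genes were the ligands Igf1 and Igf2, the receptors Igf1r and Igf2r, and the binding proteins Igfbp2 to Igfbp7. The members were taken as every probe that the platform annotation assigns to one of these symbols and that has a value on both arrays, which gave 14 probes for 10 genes among the 16593 named genes of the array. Single-colour bead arrays were run on 1 sample of control fibroblasts and 1 sample of fibroblasts that received an electromagnetic field (EMF) while kept on gold nanoparticles (AuNPs). By its title, the series belongs to work on converting cells to dopamine neurons for Parkinson's disease. Strain, age, passage, field strength and exposure time are not stated in the labels used here, and neither sample received AuNPs alone or EMF alone. Each condition has 1 array, so no difference could be tested, and the values below describe these 2 samples.

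IGF1 and IGF2 are secreted growth factors that act through the receptor tyrosine kinase IGF1R, which signals through insulin receptor substrates to the PI3K-AKT and RAS-MAPK branches. IGF2R, the cation-independent mannose-6-phosphate receptor, carries IGF2 to lysosomes for breakdown and sorts lysosomal enzymes. The secreted binding proteins hold IGFs outside the cell and either limit or prolong their access to the receptor. Fibroblasts and other mesenchymal cells are a known source of IGF1 and of most binding proteins, and macrophages also make IGF1.

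No IGF gene differed 2-fold, and most were slightly lower with EMF and AuNPs. Igfbp6, a binding protein that prefers IGF2, was 1.61-fold lower, and 1 of the 2 probes of Igfbp2 was 1.76-fold lower. Igf2r was 1.28-fold higher, and its 2 probes gave nearly the same difference. Igf2, Igf1 and the brightly measured Igfbp5 and Igfbp7 differed by at most 1.12-fold. The promoter windows of Igfbp6, Igfbp2 and Igf2r are printed here because the first 2 have a probe past 1.5-fold and both probes of the third were higher with EMF and AuNPs. Each window is RefSeq sequence of build GRCm38.p6, running 5′ to 3′ on the gene's strand from 250 bases before to 50 bases after a listed start. Capitals mark matches on either strand to the letters TATAAA of the TATA box, GGGCGG of the GC box, CCAAT of the box named after them and CACGTG of the E-box.
Igfbp6, chr15:102143936-102144235 (+ strand): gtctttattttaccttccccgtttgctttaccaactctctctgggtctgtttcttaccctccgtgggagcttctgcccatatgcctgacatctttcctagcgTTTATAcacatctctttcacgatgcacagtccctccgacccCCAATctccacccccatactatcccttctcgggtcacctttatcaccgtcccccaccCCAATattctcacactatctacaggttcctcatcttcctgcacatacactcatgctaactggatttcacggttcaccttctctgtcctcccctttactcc
Igfbp2, chr1:72824230-72824529 (+ strand): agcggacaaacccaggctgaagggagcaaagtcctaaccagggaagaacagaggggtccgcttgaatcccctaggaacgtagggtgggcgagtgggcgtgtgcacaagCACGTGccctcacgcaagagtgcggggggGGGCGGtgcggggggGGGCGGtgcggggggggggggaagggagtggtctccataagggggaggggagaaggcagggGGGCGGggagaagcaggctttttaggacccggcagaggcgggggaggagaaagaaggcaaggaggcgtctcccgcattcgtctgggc
Igf2r, chr17:12769657-12769956 (- strand): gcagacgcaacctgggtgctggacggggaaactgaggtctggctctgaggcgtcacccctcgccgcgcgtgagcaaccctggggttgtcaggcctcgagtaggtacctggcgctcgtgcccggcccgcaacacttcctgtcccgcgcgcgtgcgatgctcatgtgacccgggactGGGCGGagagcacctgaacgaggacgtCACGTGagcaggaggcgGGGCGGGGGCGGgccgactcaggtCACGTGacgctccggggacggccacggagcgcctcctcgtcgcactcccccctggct
In these windows no match overlapped a match to another motif. The Igfbp6 window held 1 TATA box match and 2 CCAAT box matches and had a GC content of 49.7%. Its TATA box match, the reverse complement TTTATA, began at -148 from the listed start, and its CCAAT matches at -107 and -50. The Igfbp2 window held 3 GC box matches and 1 E-box match at a GC content of 67.0%. A second listed start of Igfbp2 had none of the 4 motifs. The Igf2r window held 3 GC box and 2 E-box matches at 70.7% GC. Of 32851 RefSeq windows of the same length, 13.6% held the TATA box, 35.7% the GC box, 37.4% the CCAAT box and 7.15% the E-box, and the median GC content was 52.7%. These matches describe the letters of the windows, and the arrays measured neither binding nor promoter use.

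All 10 genes were detected on both arrays at a detection p under 0.01, through 13 of the 14 probes. The lowest detected intensity was 187 in control and 181 with EMF and AuNPs, and 46.7% and 46.6% of the 25697 probes were detected. Intensities below are the deposited values before normalization. Differences are EMF and AuNPs minus control on the log2 scale, after background correction and quantile normalization. A gene takes the value of its brightest detected probe. Probes bind with different efficiency, so levels are compared between arrays for 1 probe and are not ranked between genes. The plot of intensity by probe shows the pair of values for each probe.

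**Figure D1:**
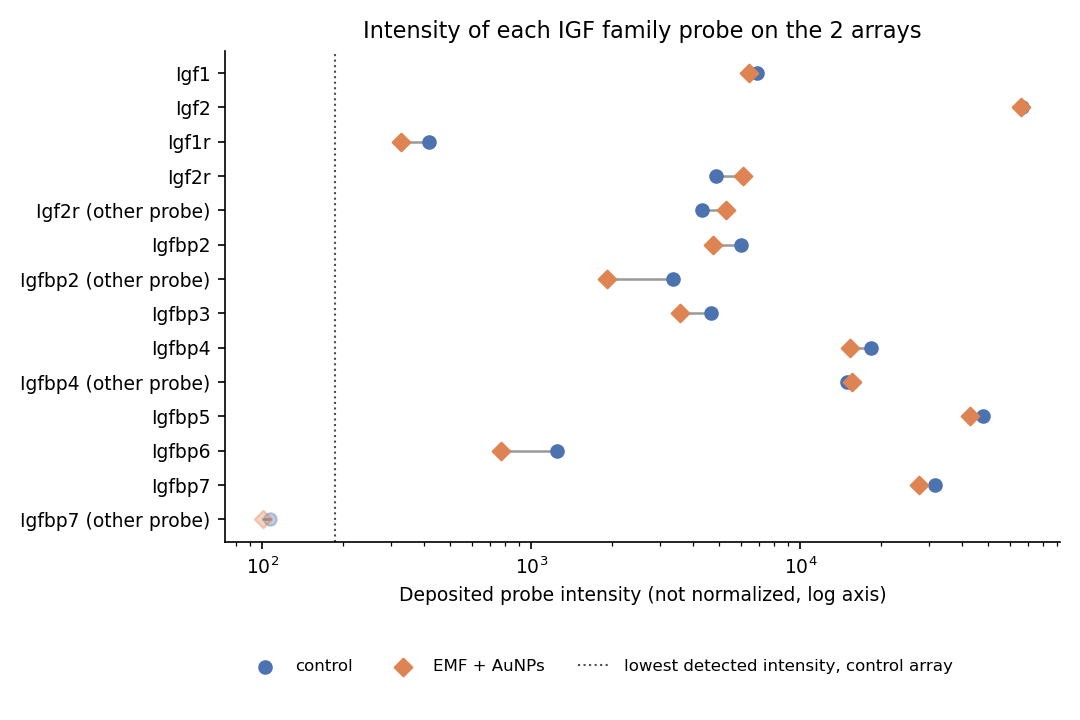
Deposited intensity of each of the 14 probes of the IGF genes (x axis, log scale, not normalized) in control cells (circles) and with EMF and AuNPs (diamonds), 1 array each, with the lowest detected intensity of the control array as a dotted line. Igfbp6 went from 1244 to 774 and the other probe of Igfbp2 from 3367 to 1911, whereas the second probe of Igfbp7 lay below detection on both arrays.

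Both ligands were measured at nearly the same level on the 2 arrays. Igf2, the fetal growth factor expressed from the paternal allele in most tissues, read 66515 in control and 65882 with EMF and AuNPs, a ratio of 0.990. It held rank 8 of all probes on both arrays, so quantile normalization gave it the same log2 value of 16.01 on each and a difference of 0.00. Its intensity was 96.0% and 96.7% of the highest on the array, and whether the scale still separates levels that close to its upper end was not tested. The sign of its difference depended on the scaling, at 0.06 after median centring and -0.05 after cyclic loess. Igf1, the ligand whose gene responds to growth hormone, read 6904 in control and 6415 with EMF and AuNPs. Its difference was -0.08, within the robust SD of 0.17 among genes of like brightness. This SD, the scaled median absolute deviation of the differences in 1 of 20 brightness bins, mixes real change with noise and is no substitute for replicates.

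The receptors differed in opposite directions. Igf2r read 4854 in control and 6122 with EMF and AuNPs on its brightest probe, a difference of 0.36. Its other probe went from 4306 to 5306, a difference of 0.33 or 1.26-fold. Both probes were thus higher by about 2 robust SDs, at 2.15 and 2.00 times the SD of 0.17. Igf1r, the signalling receptor of both ligands, was measured at low signal, at 417 in control and 326 with EMF and AuNPs. Its normalized log2 signal was 8.26 and 7.91, a difference of -0.35, which is -1.09 robust SDs at an SD of 0.32 for that brightness. Multiples of the robust SD are counted from 0 throughout, and genes as bright as Igf1r had a median difference of 0.08. A single probe measured Igf1r.

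Under the main setting, all 6 binding protein genes lay below 0 by brightest probe, as did 44.0% of the 8651 detected genes. The sign was the same under the 9 alternatives that use that probe, and by the mean of detected probes. The other detected probe of Igfbp4 lay above 0. Changing or dropping the detection limit could not alter the sign, since these genes then kept the same values. The deposited values repeat those without background correction, and the remaining alternatives rescale the same arrays, so this agreement is no independent support. Igfbp6 read 1244 in control and 774 with EMF and AuNPs. Its normalized log2 signal was 10.13 and 9.44, a difference of -0.68, or -3.01 robust SDs at an SD of 0.23. By absolute difference it ranked 294 of the 8199 genes detected on both arrays. It rests on 1 probe, and its value ranged from -0.70 to -0.61 over the alternatives.

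Igfbp2, a binding protein common in fetal tissue and serum, gave probe-dependent values. Its brightest probe, ILMN_2930897, read 6009 and then 4732 with EMF and AuNPs, a difference of -0.33. The other, ILMN_1236788, went from 3367 to 1911, a difference of -0.82. Both lie below 0, but the gap of 0.49 between them exceeded that of 86.5% of the 2054 genes with at least 2 probes detected on both arrays, whose median gap was 0.18. With the mean of detected probes Igfbp2 differed by -0.57. Which transcripts each probe reads was not examined here, as the probe sequences were not used.

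Igfbp3, the main IGF carrier of serum, read 4648 in control and 3567 with EMF and AuNPs. Its difference was -0.36, or 1.29-fold lower, beside a robust SD of 0.18. Igfbp4, generally an inhibitor of IGF action that is inactivated by cleavage, went from 18367 to 15339 on its brightest probe, a difference of -0.26. Its other probe went from 14848 to 15509, a difference of 0.07. The 2 probes of Igfbp4 thus disagree in sign, and their mean was -0.10. Of the 2054 genes with 2 such probes, 62.9% had the same sign on both.

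Igfbp5 and Igfbp7 were bright and, by brightest probe, differed least among the binding proteins. Igfbp5, which binds extracellular matrix, read 47742 in control and 42835 with EMF and AuNPs, a difference of -0.16 or 1.12-fold. Igfbp7, a related secreted protein with low affinity for IGFs, went from 31695 to 27700.5, a difference of -0.17. Both lie slightly more than 1 robust SD below 0, at -1.19 and -1.22 for an SD of 0.14 among the brightest genes. The second probe of Igfbp7 read 106 and 101, below detection on both arrays, and takes no part. Igfbp5 is the neighbour of Igfbp2 on mouse chromosome 1, while Rpl37a, a ribosomal protein gene on the other side of Igfbp2, differed by 0.01. Adgrl3, a neighbour of Igfbp7 on chromosome 5, differed by -0.38. Igfbp1, the neighbour of Igfbp3 on chromosome 11, was below detection on both arrays, as was the insulin gene Ins2 beside Igf2 on chromosome 7.

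**Figure D2:**
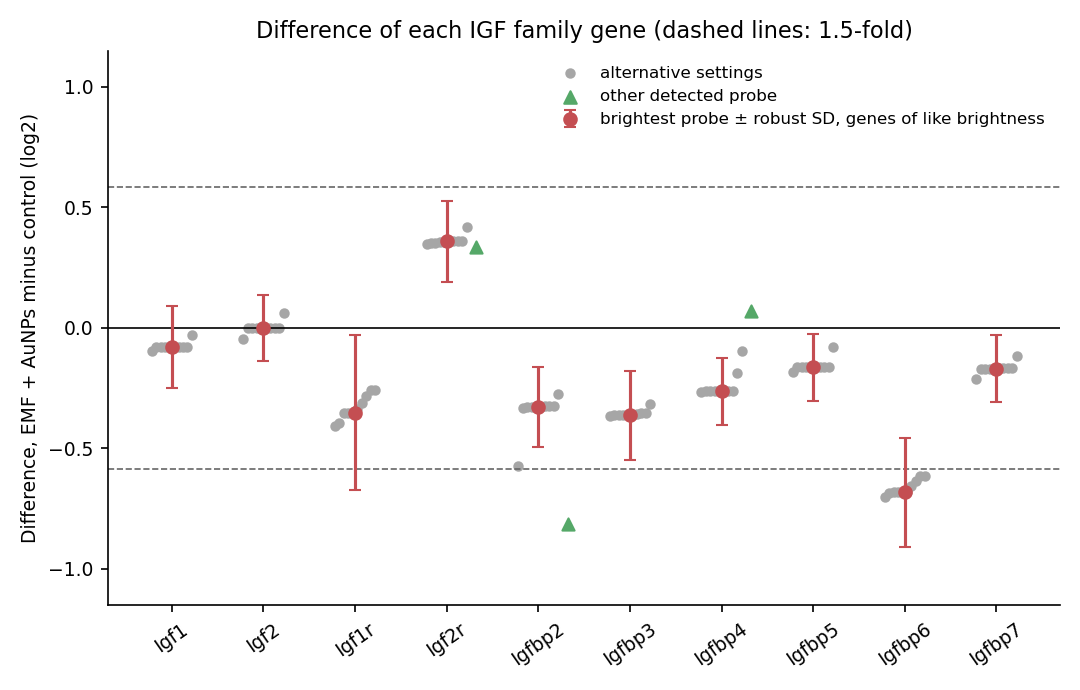
Difference of each IGF gene (EMF and AuNPs minus control, log2), with the brightest probe as a circle, the robust SD of genes of like brightness as its bar, 10 alternative settings as grey points and other detected probes as triangles. Igfbp6 is the 1 gene whose circle passes the dashed 1.5-fold line, the triangle of Igfbp2 lies at -0.82, and Igf2, whose sign changes with the scaling, lies at 0.00.

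As a group, 8 of the 10 genes had a difference below 0, 1 above and 1 at 0, where 44.0% of the 8651 detected genes lay below 0 and 55.8% above. The median over the 10 genes was -0.22, beside 0.03 over all detected genes, and the median over the 6 binding proteins was -0.30. At 2-fold, 0 of the 10 were higher and 0 lower, where 0.52% of all detected genes were at least 2-fold higher and 0.485% at least 2-fold lower. At 1.5-fold, 0 were higher and 1, Igfbp6, was lower, where 3.34% of all detected genes were higher and 2.91% lower. Genes as bright as Igfbp5, Igfbp7, Igfbp4 and Igf2 had a median difference of 0.01, with 46.2% below 0. These counts describe 2 arrays, and the genes were picked with earlier results of these arrays known.

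**Figure D3:**
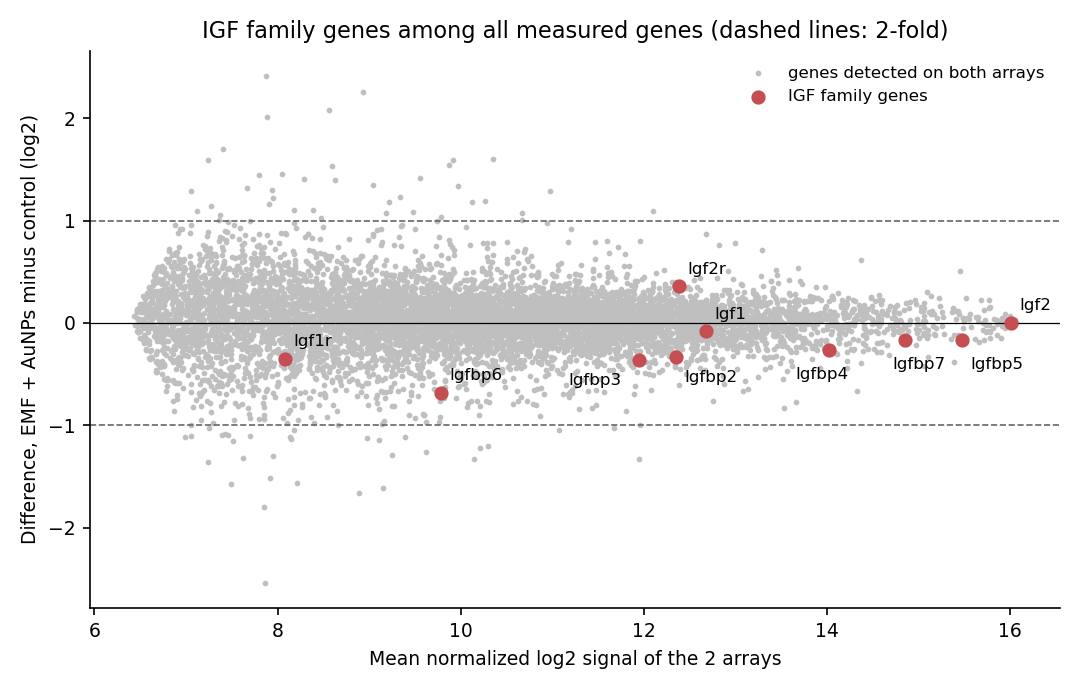
Difference (log2, y axis) against the mean normalized log2 signal of the 2 arrays (x axis) for the 8199 genes detected on both, with the 10 IGF genes in red. The IGF genes lie inside the dashed 2-fold lines and mostly below 0, from -0.68 for Igfbp6 to 0.36 for Igf2r.

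Markers of the labelled cell type were present, with 15 of 15 fibroblast markers on the array detected, among them Col1a1, Pdgfra and Thy1. Their median difference was -0.09, with 11 below 0 and 4 above. Their summed intensity went from 249056 to 228127, a ratio of 0.92, beside 0.99 over all detected genes. Such sums are taken before normalization and weigh bright probes most, such as Col1a1 (59628 to 52685) and Vim (21838 to 16747). Macrophage and leukocyte markers were detected for 12 of 13 on the array, all but Itgam. Their median difference was 0.18, with 10 above 0 and 2 below. The 2 below were Lyz2, at -0.11, and Ptprc, detected in control alone, with a bound of -0.51. Their summed intensity went from 162431 to 171652, a ratio of 1.06, in which Fcer1g went from 31786 to 38676. The part of the fibroblast or macrophage marker differences in the IGF values was not tested. Fewer cells of a type cannot be told apart from less RNA per cell. Macrophage markers were also bright in control, where Lyz2 read 46631 and Laptm5 43796, whereas Spi1 read 333 and Ptprc 227. Which cells gave the IGF signals was not tested. Adipocyte markers were detected for 4 of 7, and all 4 lay below 0, with a median of -0.37. Skeletal muscle markers were detected for 6 of 8, with 5 above 0 and a median of 0.62. At least 1.5-fold higher were 4, namely Mylpf (0.86), Tnnt1 (0.64), Tnnc1 (0.63) and Myl1 (0.60). Myod1 and Myog were not detected. Past 1.5-fold were also the fibroblast marker Ddr2 (0.61) and the macrophage marker Cd52 (0.80), both higher, and the adipocyte marker Pparg (-0.59), lower. Of all detected genes, 3.34% were at least 1.5-fold higher and 2.91% lower. The part of the adipocyte and muscle lists in the IGF values was not tested either. Endothelial markers were detected for 3 of 7, epithelial for 2 of 5 and neuronal for 1 of 6, with none past 1.5-fold. Of the hepatocyte markers, 0 of 5 were detected, among them Alb and Ttr.

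The wider pathway was described with 7 lists of 132 genes, of which 107 were on the array and 76 detected. Of the 76, 3 were at least 1.5-fold higher (3.95%) and 1 lower (1.32%), beside 3.34% and 2.91% of all detected genes, and their median difference was 0.05. Among receptor kinases and adaptors, 11 were detected, with 4 above 0, 7 below and a median of -0.08. By brightest probe, none passed 1.5-fold in either direction. Grb14, an adaptor that inhibits insulin receptor signalling, differed by 0.51 on its brightest probe and 0.63 on another. Ptpn1, a phosphatase of the insulin receptor, differed by 0.47, and the adaptor gene Crkl by -0.30. Insr and Irs1 were on the array and not detected.

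In the PI3K-AKT-mTOR branch, 24 genes were detected and the median was 0.02. Gsk3b, a kinase that AKT inhibits, read 507 in control and 783 with EMF and AuNPs, 1.80-fold higher. Deptor, an inhibitory partner of mTOR, went from 925 to 589, a difference of -0.67 on its brightest probe. Another probe of Deptor, detected in control alone, was lower by a bound of -0.50. Without background correction Deptor differed by -0.58, under 1.5-fold. Pik3cd, a PI3K catalytic subunit, differed by 0.44 on its 1 detected probe. Akt1, Akt2 and Foxo3 were not detected. In the RAS-MAPK branch 8 genes were detected, with a median of 0.08 and none past 1.5-fold. Map2k1 differed by 0.27 and Map2k2 by 0.12, and Spry4, detected with EMF and AuNPs alone, by at least 0.25.

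Proteases that cleave binding proteins, with their partners, had 9 detected genes, 6 above 0 and 3 below, and a median of 0.23. Mmp3, the stromelysin gene, went from an intensity of 577 to 1292 and was 2.66-fold higher, and its 3 probes all passed 2-fold. Htra1, a secreted serine protease that cleaves IGFBP5, went from 6247 to 8407, with probes at 0.44 and 0.56. Plau, the urokinase gene, differed by 0.29 at low signal. In the growth hormone list, 8 genes were detected, with a median of 0.04. Socs3, a feedback inhibitor of cytokine receptors, went from 1362 to 2070 and was 1.62-fold higher. Ghr, the growth hormone receptor gene, differed by -0.24 and -0.38 on its 2 probes. The probes of Igf2bp3, which binds Igf2 mRNA, disagreed in sign at 0.27 and -0.18.

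Of the insulin family and other proteins with an IGFBP domain, 6 genes were detected, with a median of 0.14 and none past 1.5-fold. Ccn5 differed by -0.57, Kazald1 by 0.31 and Ccn1 by 0.49, although other probes of Ccn1 differed by 0.10 and -0.57. All 10 listed partners of Igf2r on the array were detected. Besides Plaur, they sort Igf2r or make or recognise the mannose-6-phosphate tag. Their median was 0.08, beside 0.36 for Igf2r itself, and none passed 1.5-fold. The largest difference was that of Gnptab, the phosphotransferase gene that starts the tag, at 0.35, while the retromer gene Vps35 differed by -0.12 and the adaptor gene Gga1 by 0.17, with its second detected probe at -0.01.

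**Figure D4:**
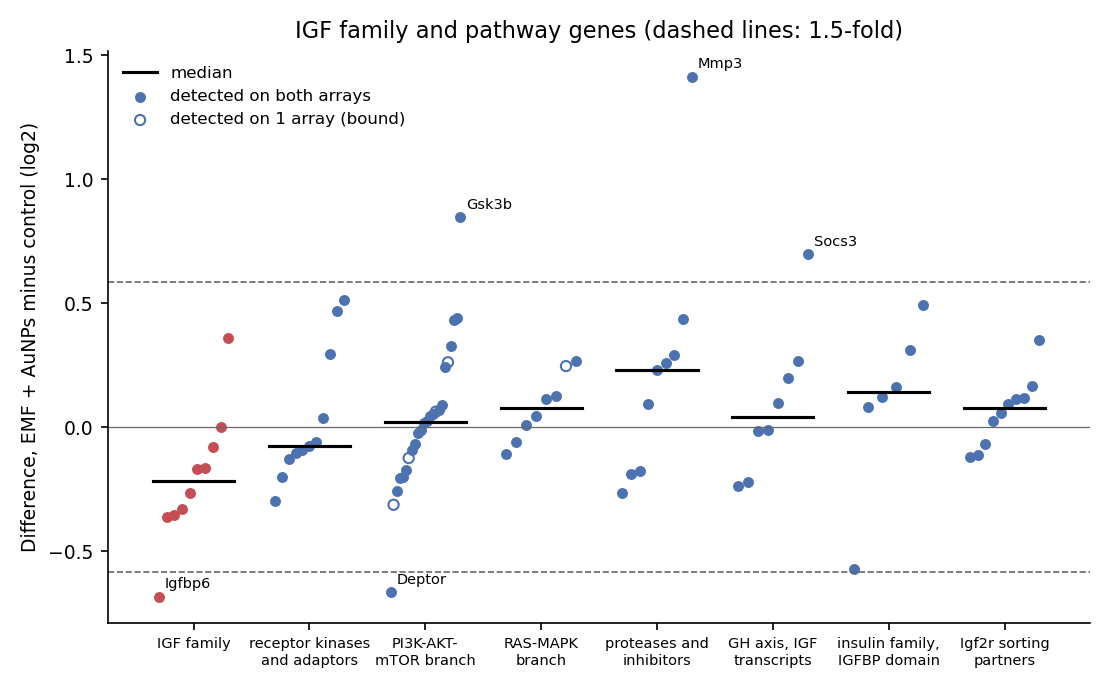
Difference (EMF and AuNPs minus control, log2) of the 10 IGF genes and of the detected genes in the 7 pathway lists, with open circles for bounds of genes detected on 1 array and bars for medians. The IGF genes have a median of -0.22 and the protease list one of 0.23, and Mmp3, Gsk3b, Socs3, Deptor and Igfbp6 lie past the dashed 1.5-fold lines.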

How the data were processed

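Expression was measured on 2 Illumina bead arrays, 1 per condition. Per the labels' protocols, Trizol-extracted total RNA was amplified to biotin-labelled cRNA, and the software listed, per the submitters' processing notes, is GenomeStudio 2011.1. The authors deposited a linear signal intensity for each of 25697 probes, named as non-normalized, with a detection p-value beside it. The sources used here do not give the steps between scanner output and these values. Values that the authors deposited on the log2 scale equalled the quantile normalized log2 intensity without background correction to within 5e-07, and both columns have a median of 7.35.

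Intensities were background-corrected from the detection p-values and quantile normalized with neqc (limma 3.58.1, R 4.3.3, offset 16). Gene names came from the platform annotation and were looked up by Entrez number among RefSeq symbols (23962 of 23978 named probes matched). The lookup changed 0 names. A gene took its brightest probe with a detection p under 0.01 on at least 1 array. For a gene detected on 1 array the difference is a bound, taken against the dim probe's value or the lowest value detected on its array, whichever was higher. With 1 array per group no test was made, the depth is that of 1 array each, and calls are by size at 2-fold and 1.5-fold. All members are named, and from the pathway lists the genes past 1.5-fold and the 3 largest differences of each list. The members and lists were chosen with earlier results of these data known. Genes of like pattern were not sought, since 2 arrays give a single difference. The steps were run on simulated arrays whose true changes were all at least 2-fold, so that run does not bear on smaller differences. Alternatives covered background correction, offset, normalization, deposited log2 values, detection limit and probe choice.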

Additional observations from a re-analysis of the deposited data

How the results depend on the processing

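The number of arrays limits the precision, and no replicate could be left out. No paired analysis was possible because each condition has 1 array. Under 10 alternatives the counts of IGF genes past 2-fold and 1.5-fold and the number detected (under both other detection limits) did not change, and their median ranged from -0.24 to -0.15. Of 100 single-gene values, 40 equalled the main value, and the deposited log2 values repeat those without background correction. Of the 51 others, 49 moved by less than the robust SD of genes of like brightness, and 2 moved by more, both with the mean of detected probes, at -0.57 for Igfbp2 and -0.10 for Igfbp4, where the second probe enters the value. The count of pathway genes at least 1.5-fold lower went from 1 to 0 without background correction, with the deposited log2 values and with the mean of detected probes, where Deptor differed by -0.58. The count at least 1.5-fold higher went from 3 to 4 with no detection filter, where Sh2b2, otherwise not detected, entered at 0.62. Without background correction 119 of all detected genes were at least 1.5-fold higher and 138 lower, against 289 and 252, and 24 and 16 passed 2-fold, against 45 and 42. A detection p under 0.001 gave 132 and 153 at 1.5-fold and 24 and 16 at 2-fold, and fewer genes were then tested (6974). A detection p under 0.05 gave 382 and 309 at 1.5-fold and 73 and 48 at 2-fold. With no detection filter, 16593 genes gave 506 higher and 417 lower at 1.5-fold and 96 and 64 at 2-fold. With an offset of 50, neqc gave 188 and 195 at 1.5-fold and 35 and 26 at 2-fold, and normexp 140 and 165 at 1.5-fold and 27 and 21 at 2-fold. The median of all genes stayed between 0.01 and 0.04.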
